A study of Mus musculus with 192 samples.

Results

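Ptp1b, the protein tyrosine phosphatase that RefSeq lists as Ptpn1, was 1 of 43 target genes counted in 192 pools of brain RNA, and its row was chosen by gene name. Its count in each pool was divided by the geometric mean of the 3 reference genes of that pool, and the level is given throughout as Ptp1b counts per 1000 reference gene counts. Ptp1b exceeded background in all 192 pools, where background was the average of a pool's negative control probes with 2 SD added.

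The pools came from male L44 mice on the FVB/n background. HEM mice are hemizygous and HOM mice homozygous for a transgene that encodes triprolyl-human amylin under the rat insulin 2 promoter. NON mice are nontransgenic. The paper states that it could not tell whether changes in brain amylin transcript came from the transgene or the endogenous gene. Brains were taken at about 100 days (T1), at the onset of diabetes (T2, with NON mice of matched ages) and at about 400 days (T3), in the morning (AM) or afternoon (PM), and were divided into hindbrain with cerebellum, left cortex, right cortex and a remaining part called midbrain, which holds the hypothalamus. The labelled ages at T2 ran from 90 to 286 days. Of the pools, 43 held RNA of 1 mouse and 149 RNA of 2 mice, and a pool was usually measured in several regions, so regions share mice. At T1, 12 HEM pools (3 per region) had no label for collection time and entered only the comparison of regions, a comparison over all T1 pools and the descriptions. At T3, 3 of the 6 NON pools in each region carry the label of previous diabetes, which some HEM and HOM pools lack, and the label was used only in an alternative that selected transgenic pools. For the HOM right cortex pools at T2, the source label says hemizygous, and the genotype was taken from their titles and genotype labels, which say homozygous. The labels name no litters, though the T2 ages match many transgenic pools to a NON pool, and apart from the fits by age-matched pairs the tests between pools took them as independent, so their p-values measure the spread between these pools.

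PTP1B sits on the endoplasmic reticulum and removes phosphate from the activated insulin receptor and from Jak2, the kinase attached to the leptin receptor. It thereby restrains both insulin and leptin signalling, and mice that lack it in neurons are lean and sensitive to leptin. Insulin signals from its receptor (Insr) through the substrates Irs1 and Irs2 to PI3-kinase and Akt, and leptin from its receptor (Lepr) through Jak2 to Stat3, with Socs3 as a feedback inhibitor.

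The labelled regions were checked with hypothalamic genes of the same panel. Mch, which encodes melanin-concentrating hormone, had a lowest level of 2380 and a highest of 6460 in the midbrain, against at most 89.8 in the hindbrain, 30.0 in left cortex and 28.1 in right cortex. Hcrt, the orexin precursor, had a median of 136 in the midbrain and of 4.49 to 4.94 in the other regions. Pomc and Agrp, neuropeptide genes of the arcuate nucleus, also had their highest medians in the midbrain, 54.2 for Pomc against 20.9 in the hindbrain and 18.7 for Agrp against 6.77. Their highest single values came from hindbrain pools, however, with 189 for Pomc against at most 139 in the midbrain and 74.9 for Agrp against at most 31.0. Mch and Hcrt marked the midbrain pools without overlap with other regions, whereas Pomc and Agrp did not.

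The mouse gene lies at chr2:167930750-167979385 on the plus strand of GRCm38.p6 in RefSeq. The 250 bases before the start of the transcript NM_011201.3, at chr2:167932077-167932326, are shown because every value below is a transcript level of this gene. Capitals mark the GC box GGGCGG on either strand (CCGCCC on the other).

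Ptp1b promoter: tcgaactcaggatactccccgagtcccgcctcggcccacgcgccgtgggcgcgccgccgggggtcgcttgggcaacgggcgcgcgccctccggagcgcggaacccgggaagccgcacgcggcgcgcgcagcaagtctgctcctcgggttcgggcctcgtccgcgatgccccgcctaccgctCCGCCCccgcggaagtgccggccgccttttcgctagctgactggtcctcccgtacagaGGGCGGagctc

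The GC box occurred once on each strand of this window, and 32.7% of the 32851 promoter windows of that length in the RefSeq table held it. G and C made up 75.2% of the bases, against a median of 52.4% over all windows, and 96.1% of the windows had a lower share. No match was found to the E-box CACGTG (in 6.0% of windows), TATAAA (12.4%) or CCAAT (33.8%), each searched on both strands. These are matches of letters only.

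Ptp1b was lowest in the hindbrain, intermediate in the midbrain and highest in the cortices. The level was 632 ± 112 (SD, n = 46 pools) in the hindbrain, with a range of 411 to 888. It was 951 ± 108 (n = 49) in the midbrain, with a range of 750.0 to 1162. In the left cortex it was 1315 ± 327 (n = 48), from 746 to 2002, and in the right cortex 1360.1 ± 332 (n = 49), from 813 to 2139. The cortical values spread over the widest range and overlapped those of the midbrain, and the lowest of them lay below the highest hindbrain values.

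Regions were compared within pools, with the pool as a block, in edgeR (quasi-likelihood), and p-values were adjusted by Benjamini and Hochberg's method across the 43 genes. The fit held 181 libraries of 50 pools, and a call is an adjusted p under 0.05. Midbrain exceeded hindbrain by 0.63 on the log2 scale (SE 0.03, adjusted p = 7.5e-41), in a comparison where 81.4% of the genes were called, and it was higher in all 38 pools measured in both. The left cortex exceeded the hindbrain by 1.06 (SE 0.03, adjusted p = 6.51e-65, 83.7% of genes called) and the right cortex did so by 1.12 (SE 0.03, adjusted p = 2.89e-67, 86.0% of genes called), each in all 36 shared pools. Against the midbrain, the left cortex was higher by 0.43 (SE 0.03, adjusted p = 6.72e-30, 83.7% of genes called) and the right cortex by 0.49 (SE 0.03, adjusted p = 5.5e-34, 83.7% of genes called). These held in 44 of 46 and 45 of 46 shared pools. The sides of the cortex did not differ beyond their spread: left against right was -0.05 (95% interval -0.11 to 0.01, adjusted p = 0.58), and 0% of the genes were called there.

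The regional steps of other genes of the pathway differed in size and direction. Jak2, a substrate of the phosphatase, was 0.43 higher (log2, SE 0.06) in the midbrain than in the hindbrain and 0.49 higher (SE 0.06) in the left cortex than in the hindbrain, and both were called. Insr, the other substrate, was 0.00 higher (SE 0.04) in the left cortex than in the hindbrain. Irs1 was lower than in the hindbrain in the midbrain, by -0.52, and in the right cortex, by -0.58. Of the 19 other genes of the insulin and leptin pathway, 11 were called higher and 2 lower in left cortex against hindbrain, with a median of 0.18, and 9 higher and 5 lower in left cortex against midbrain, with a median of 0.06. Of all 43 genes, 23 were called higher and 13 lower in the first comparison and 17 higher and 19 lower in the second.

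**Figure D1:**
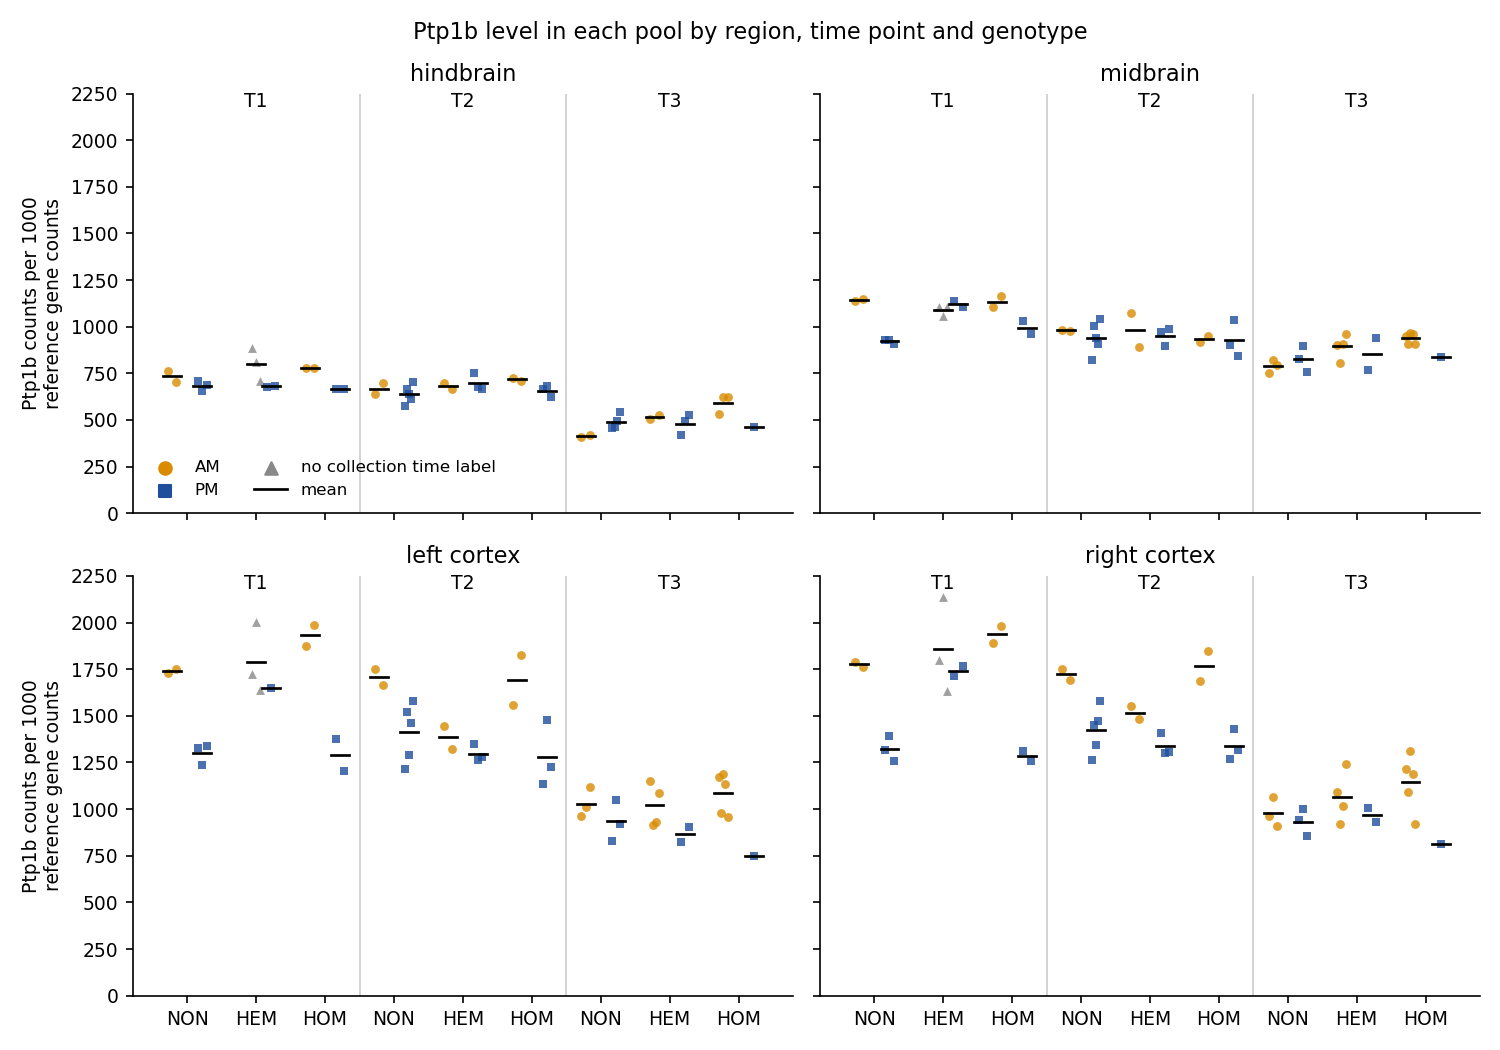
Ptp1b level (counts per 1000 reference gene counts, y axis) in each of the 192 pools, by region (panels), time point and genotype (x axis); circles are AM, squares PM and triangles HEM pools with no collection time label, and black lines are means of those pools. Levels are lowest in the hindbrain, fall at T3 in every region, and in both cortices at T1 the AM pools lie above the PM pools within NON and within HOM.

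Ptp1b was lower in the afternoon than in the morning in both cortices when averaged over time points and genotypes, and the mean of the PM pools was below that of the AM pools in each of the 8 combinations of time point and genotype that had both (HEM mice at T1 had no AM pool). The single combinations were called in part only. At T1 the left cortex of NON mice had levels of 1731 and 1753 in the AM pools and of 1239, 1330.0 and 1339 in the PM pools. HOM left cortex at T1 had 1877 and 1989 in AM and 1206 and 1375 in PM. In the right cortex at T1, NON pools had 1764 and 1787 in AM and 1257, 1317 and 1391 in PM, and HOM pools 1889 and 1984 in AM and 1260.1 and 1310.4 in PM. No AM and PM values overlapped in these groups. Overlap was described for Ptp1b only, here and below, and groups of 2 or 3 pools can separate without a difference.

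Averaged over the 8 combinations of time point and genotype with both collection times, PM was below AM by -0.34 (log2, SE 0.04, adjusted p = 4.11e-07, edgeR) in the left cortex. In the right cortex the difference was -0.32 (SE 0.04, adjusted p = 6.2e-08). In the left cortex 34.9% of the genes were called and in the right cortex 14.0%, with medians over all genes of -0.08 and -0.05. The left cortex values of the 8 combinations ran from -0.58 to -0.09 and the right cortex values from -0.59 to -0.07, all below 0. Both averages kept their call when any 1 of 44 pools was left out (adjusted p at most 3.89e-06 on the left and 7.3e-07 on the right side). With TMM scaling on the target genes in place of the reference genes they were -0.25 and -0.26, still called, and with the positive control probes -0.12 (adjusted p = 0.53) and -0.20 (adjusted p = 0.48).

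In the midbrain the average was -0.10 (SE 0.03, adjusted p = 0.034, 16.3% of genes called), and the call was lost in 12 of the 44 fits that each left out 1 pool, whose values ran from -0.12 to -0.08 in all. In the hindbrain it was -0.09 (SE 0.03, adjusted p = 0.11, 9.30% of genes called). Whether the collection time difference itself varied by region was tested with region by collection time terms in 1 fit. It had the pool as a block, took the difference in a region as the same in all genotypes and time points, and was added after the values were seen. The PM against AM difference was more negative in the left cortex than in the hindbrain by -0.18 (SE 0.04, adjusted p = 0.00088, 9.30% of genes called) and than in the midbrain by -0.20 (SE 0.04, adjusted p = 5.12e-05, 9.30% of genes called). For the right cortex these values were -0.19 (SE 0.04, adjusted p = 0.00045, 9.30% of genes called) and -0.21 (SE 0.04, adjusted p = 4.51e-05, 11.6% of genes called). With the positive control probes none of these 4 differences was called (values from -0.24 to -0.06, adjusted p from 0.91 to 1), and with DESeq2's own size factors that of left cortex and midbrain was not (-0.10, adjusted p = 0.095). Midbrain and hindbrain differed by 0.02 (95% interval -0.06 to 0.10, adjusted p = 0.94, 6.98% of genes called), and left and right cortex by 0.01 (95% interval -0.07 to 0.09, adjusted p = 0.94).

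Of 28 comparisons of PM with AM within a region, time point and genotype that had at least 2 pools per group, Ptp1b was called in 6, all lower in PM and all in the cortices. Over all genes in these comparisons 2.16% of tests were called, and no other target gene was called as often. Each group with a call had it in both cortices, which come from the same pools, so the sides are not separate evidence. In NON mice at T1, the difference was -0.42 (SE 0.12, adjusted p = 0.030, 6.98% of genes called) in the left cortex and -0.43 (SE 0.11, adjusted p = 0.0081, 4.65% of genes called) in the right cortex. In HOM mice at T1 it was -0.58 (SE 0.13, adjusted p = 0.0050, 4.65% of genes called) in the left and -0.59 (SE 0.12, adjusted p = 0.00090, 9.30% of genes called) in the right cortex. In HOM mice at T2 it was -0.40 in both (SE 0.12, adjusted p = 0.017 in the left; SE 0.11, adjusted p = 0.016 in the right), with 11.6% of genes called on each side. The NON calls were lost without reference gene 3 (-0.38, adjusted p = 0.086, in the left and -0.37, adjusted p = 0.056, in the right cortex), on the right side also with TMM (-0.26, adjusted p = 0.077) and on the left with DESeq2's own size factors (-0.30, adjusted p = 0.27). The HOM calls at T2 were lost with TMM (-0.20, adjusted p = 0.18, in the left and -0.27, adjusted p = 0.088, in the right cortex) and with DESeq2's own size factors (-0.21, adjusted p = 0.30, and -0.28, adjusted p = 0.055). With only the groups compared in the fit, the HOM left cortex calls were lost at T1 (adjusted p = 0.064) and T2 (adjusted p = 0.25). All 6 calls were lost with the positive control probes (adjusted p from 0.67 to 0.97).

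The groups of 2 or 3 pools left most of these single calls open to 1 pool. The HOM right cortex call at T1 remained without any 1 of its 4 pools, whereas that of the left cortex was lost without AM pool 6/7 (-0.54, adjusted p = 0.092). The NON calls at T1 were lost without 4 of 5 pools in the left cortex (2/7, 4/5, 6 and 8/9, with values from -0.44 to -0.38) and without 3 of 5 in the right (2/7, 6 and 8/9, with values from -0.44 to -0.39). At T2 the HOM calls were lost without PM pool 4/8 (-0.33 in the left, -0.36 in the right cortex) or AM pool 5 (-0.28 and -0.33).

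In the other cortical groups with at least 2 pools per collection time the differences were not called, and AM and PM overlapped in several of them. NON left cortex at T2 had 1667 and 1753 in AM and a range of 1216 to 1581 in PM (median 1464, n = 5), without overlap, and a difference of -0.27 (adjusted p = 0.38). HEM mice at T2 differed by -0.09 in left and -0.18 in right cortex, and neither was called; the left cortex pools overlapped. NON mice at T3 had 963 to 1117 in AM and 832 to 1051 in PM in left cortex and 911 to 1065 and 858 to 999 in right cortex, which overlapped, with differences of -0.14 (adjusted p = 0.88) and -0.07 (adjusted p = 0.98). HEM right cortex at T3 overlapped as well, with 920 to 1240 in AM and 931 to 1004 in PM and a difference of -0.14 (adjusted p = 0.56). At T3, HOM cortices had 1 PM pool, at 746 on the left and 813 on the right side, under the lowest of the 5 AM pools at 960.0 and 922. The differences were -0.54 and -0.50, and each rests on that 1 PM pool.

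**Figure D2:**
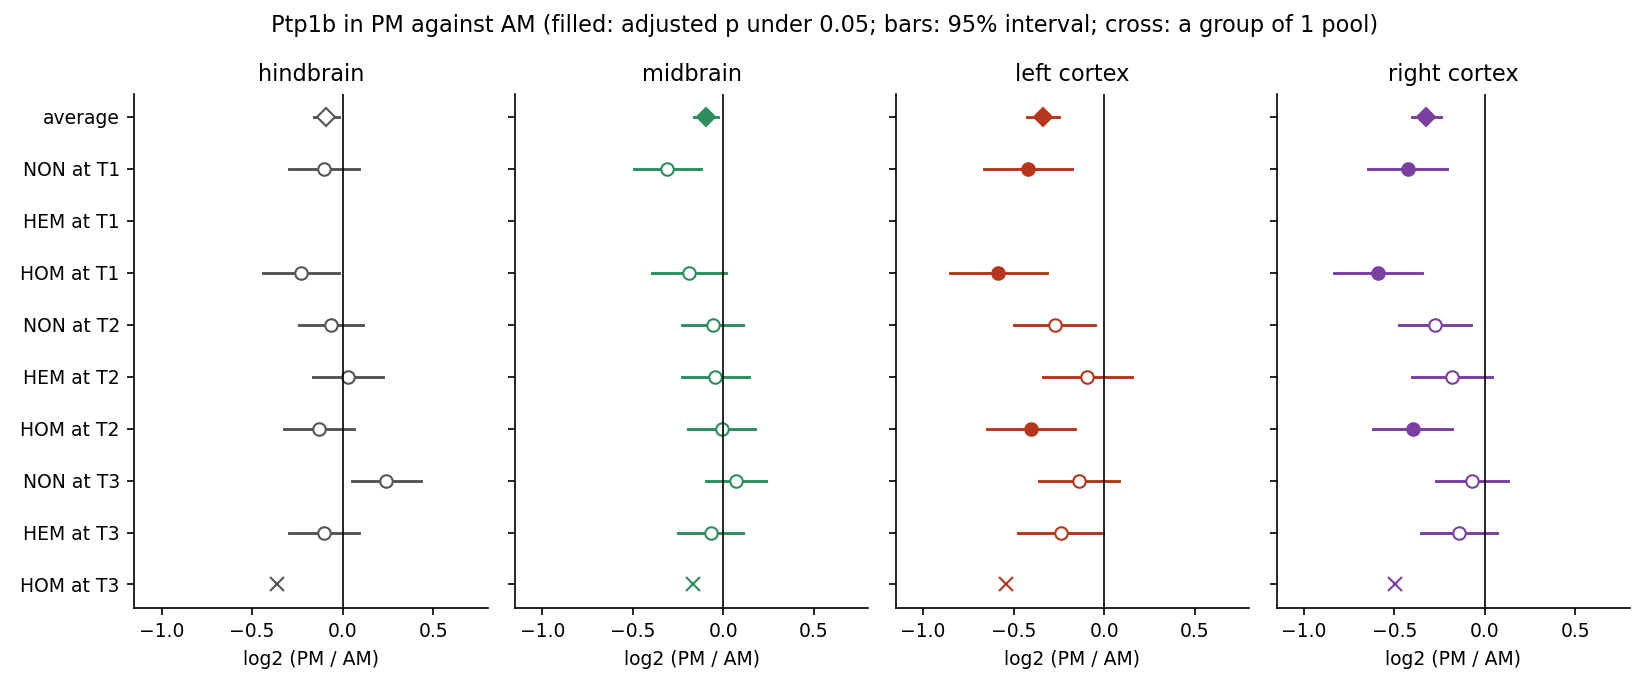
Log2 ratio of Ptp1b in PM over AM (x axis) for each time point and genotype (rows) in each region (panels), with 95% intervals from edgeR; diamonds are averages, filled symbols have an adjusted p under 0.05 and crosses mark groups of 1 PM pool. All values of both cortices lie below 0, with averages of -0.34 and -0.32.

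Among the other genes of the pathway, Irs2, a substrate of the insulin receptor, had the largest fall from AM to PM in the cortices, by 0.42 on the log2 scale in left and 0.41 in right cortex. Jak2 fell by 0.10 in left and 0.15 in right cortex, and Gsk3b, a kinase that Akt inhibits, by 0.08 in both. Hrh1 (histamine receptor H1) and Hdac5 (a histone deacetylase), outside the list and named after their values were seen, were the other genes called in both cortices besides Ptp1b, with -0.37 and -0.19 in the left. Of the 19 pathway genes, 8 were called lower in PM in left cortex and 3 in right cortex, with none called higher, and list medians of -0.06 and -0.05, beside 14 and 6 of all 43 genes called lower. In the hindbrain no list gene was called lower, and Foxo1, a transcription factor that Akt restrains, was higher in PM by 0.23 (SE 0.04, adjusted p = 2.72e-05).

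Most differences in Ptp1b between transgenic and NON mice were not called. Of 39 comparisons of HEM or HOM with NON within a region, time point and collection time that had at least 2 pools per group, 5 had an adjusted p under 0.05, all higher in the transgenic mice, and none reached a log2 difference of 1. Over all genes 4.71% of the tests in these comparisons were called, most of them higher (74 of 79). Of the other target genes, 2 were called more often than Ptp1b and 1 as often. Across the 39 comparisons the differences ran from -0.31 to 0.51 with a median of 0.03, 21 above 0 and 18 below.

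The highest value came from the hindbrain of HOM pools at T3 AM. NON pools 4/11 and 7 had levels of 411 and 419, HEM pools 2/3 and 12 had 505 and 525.8, and HOM pools 3/4, 9 and 12 had 534, 621 and 623, so the genotypes did not overlap. HOM against NON was 0.51 (SE 0.10, adjusted p = 0.00086, 20.9% of genes called) and HEM against NON 0.31 (SE 0.11, adjusted p = 0.026, 27.9% of genes called), with medians over all genes of 0.17 and 0.15. NON pool 7 and HOM pool 9 held little RNA, with 112 and 81 Ptp1b counts and reference gene means of 267 and 131, against a median of 4783 in the hindbrain. Without the 3 hindbrain pools of low reference counts, HOM against NON was 0.49 (adjusted p = 0.032), with 1 NON pool assumed to vary like the others, and HEM against NON 0.33 (adjusted p = 0.074). The HEM call was also lost without any 1 of its 4 pools, with values from 0.28 to 0.34. It was lost under 8 of 13 other settings, among them TMM (0.12, adjusted p = 0.32) and DESeq2's own size factors (0.17, adjusted p = 0.24). The HOM call remained with TMM but was lost when only the groups compared were fitted (0.51, adjusted p = 0.48) and with the positive control probes (1.69, adjusted p = 0.24).

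In the midbrain at T3 AM, NON pools had 750.0, 795 and 821 and HOM pools 908, 908, 952, 960.0 and 968, without overlap. HOM against NON was 0.25 (SE 0.07, adjusted p = 0.011, 27.9% of genes called), and without NON pool 3/4 it was 0.22 (adjusted p = 0.097) and without NON pool 10 it was 0.26 (adjusted p = 0.058). The call was also lost with TMM (0.13, adjusted p = 0.30), DESeq2's own size factors (0.11, adjusted p = 0.47) and without reference gene 1 (0.15, adjusted p = 0.39). In the right cortex at T3 AM, HOM pools had 922 to 1313 (median 1189.9, n = 5) and NON pools 911, 963 and 1065, which overlapped. The difference there was 0.23 (SE 0.09, adjusted p = 0.043), in a comparison where 34.9% of the genes were called and the median of all genes was 0.23. It ran from 0.17 to 0.30 when 1 pool was left out, was 0.04 with TMM (adjusted p = 0.87) and -0.01 with DESeq2's own size factors, and was no longer called without NON pool 3/4 or 10 or HOM pool 2/7, 6 or 8/9. The call was also lost without reference gene 1 (0.20, adjusted p = 0.11) or 2 (0.23, adjusted p = 0.0505). DESeq2 with the reference genes (adjusted p = 0.052) and the likelihood-ratio test (adjusted p = 0.067) lost it at 0.23. It was lost as well with only the groups compared (0.23, adjusted p = 0.15) and with the positive control probes (0.19, adjusted p = 0.76). With only previously diabetic transgenic pools it was 0.17 (adjusted p = 0.12).

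In the right cortex at T1 PM, HEM pools 8 and 9/10 had 1713 and 1766, above NON pools at 1257, 1317 and 1391. The difference was 0.40 (SE 0.11, adjusted p = 0.012, 14.0% of genes called), with 0.42 (adjusted p = 0.075) without HEM pool 8 and 0.37 (adjusted p = 0.070) without pool 9/10, and 0.24 (adjusted p = 0.11) with TMM. The call was also lost with DESeq2's own size factors (0.28, adjusted p = 0.053), with only the groups compared (0.40, adjusted p = 0.064) and with the positive control probes (0.58, adjusted p = 0.58). The 3 HEM pools without a collection time had 1631, 1799 and 2139. Over all T1 pools of both genotypes, whatever their collection time, the difference was 0.27 (adjusted p = 0.054, edgeR).

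Averaged over time points and collection times, HEM against NON was 0.09 in the hindbrain (adjusted p = 0.15), 0.10 in the midbrain (SE 0.04, adjusted p = 0.033, 34.9% of genes called), -0.04 in left cortex (adjusted p = 0.85) and 0.06 in right cortex (adjusted p = 0.36). No HEM pool was labelled AM at T1, so that group is missing from the HEM averages, and in left cortex the T1 PM group was 1 HEM pool. The midbrain call was lost in 8 of 29 fits that each left out 1 pool, whose values ran from 0.07 to 0.13 in all. It was also lost with TMM (0.05, adjusted p = 0.33), DESeq2's own size factors (0.05, adjusted p = 0.29), without reference gene 3 (0.07, adjusted p = 0.305), with only the groups compared (0.10, adjusted p = 0.061) and with only previously diabetic transgenic pools at T3 (0.07, adjusted p = 0.21). HOM against NON was 0.10 (adjusted p = 0.069), 0.05 (0.63), -0.05 (0.53) and 0.01 (0.98) in the same order, with 1 HOM PM pool at T3 in each region. Over all genes 10.8% of these 8 averages were called, and for Ptp1b 1 of 8. In the midbrain average, 8 of the 19 pathway genes were called higher in HEM, among them Jak2 by 0.14, Stat3 by 0.16 and Pdk1 by 0.20. HOM differed from HEM by -0.02 to 0.04 across regions, with none called and 1.74% of genes called.

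At T2, each of the 5 HEM and 5 HOM pools was also paired with the NON pool of the same collection time nearest in labelled ages, in a fit added after the values were seen, with the pair as a block; 3 NON pools served both genotypes. Ages differed by 0 to 5 days on average within 4 pairs of each genotype and by 32 days in the other, that of HEM pool 9 or HOM pool 5 with NON pool 7/8. In the hindbrain, HEM pools lay above their match in 4 of 5 pairs (0.10, adjusted p = 0.35, edgeR) and HOM pools in 5 of 5 (0.07, adjusted p = 0.30), with medians over all genes of 0.08 and 0.07. In left cortex 4 of 5 HEM pools lay below their match (-0.20, adjusted p = 0.13, median over all genes 0.03), and in right cortex 4 of 5 did (-0.13, adjusted p = 0.13). HOM pools also lay below their match in 4 of 5 pairs in left cortex (-0.11, adjusted p = 0.36, median over all genes -0.11), right cortex (-0.04, adjusted p = 0.64) and midbrain (-0.05, adjusted p = 0.49), and HEM midbrain pools did in 3 of 5 (0.03, adjusted p = 0.82). Ptp1b was called in 0 of these 8 comparisons by edgeR, with 2 at an unadjusted p under 0.05, where 2.62% of tests on all genes were called, and in 1 by DESeq2 with the reference genes (HEM left cortex, adjusted p = 0.049), which called 7.56% of the tests on all genes in the same comparisons. An exact sign-flip permutation test of the 5 pairs, two-sided, gave 0.0625 for HOM in the hindbrain, the smallest p it allows.

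**Figure D3:**
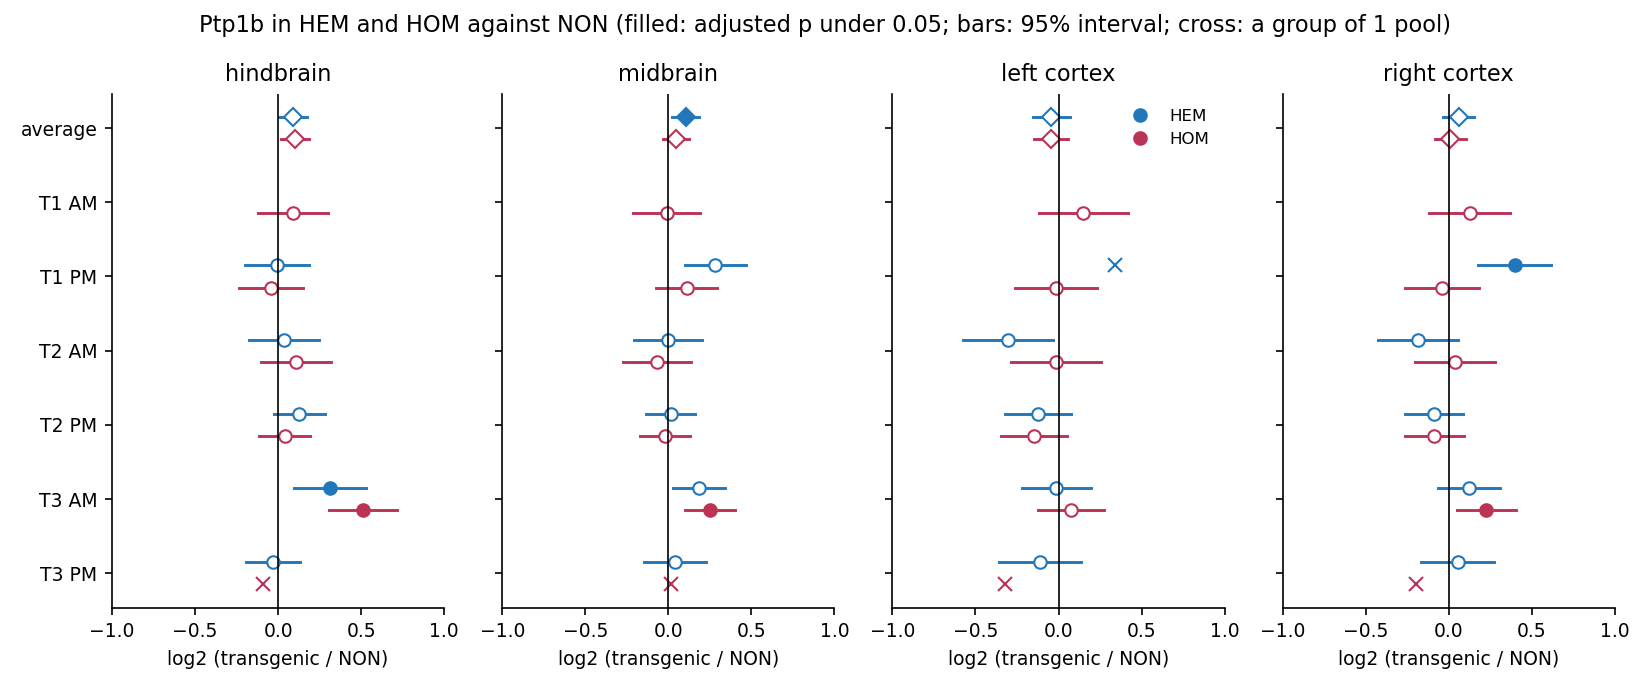
Log2 ratio of Ptp1b in HEM (blue) and HOM (red) over NON (x axis) by time point and collection time (rows) in each region (panels), with 95% intervals from edgeR; diamonds are averages, filled symbols have an adjusted p under 0.05 and crosses mark comparisons with a group of 1 pool. Most values lie within 0.2 of 0, and the highest is 0.51 in the hindbrain of HOM at T3 AM.

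The question of whether the genotype effect differed between AM and PM was tested as an interaction in 20 cases. In the 16 with at least 2 pools in every group, Ptp1b was called in 0 by edgeR, with 1 at an unadjusted p under 0.05, and in 0 by DESeq2 with either scaling. The other 4 were the HOM comparisons at T3, which have 1 PM pool, assumed to vary like the other groups, and among them the hindbrain had an adjusted p under 0.05. There PM against AM was 0.24 in NON and -0.36 in HOM, a difference of -0.60 (SE 0.15, adjusted p = 0.024, 4.65% of genes called, 1.16% over all 20). The HOM value rests on 1 PM pool, 1/11, at 459.5, and cannot be told apart from that pool's own deviation. Pool 9 of low RNA was 1 of the 3 HOM AM pools. The call was lost under 7 of 12 other settings, among them TMM (-0.41, adjusted p = 0.096) and without the pools of low reference counts (-0.61, adjusted p = 0.063).

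Ptp1b was lower at T3 than at T1 in every region. In NON mice the T3 level averaged 465 ± 49.9 (n = 6) in the hindbrain against 703 ± 39.7 (n = 5) at T1. The fitted difference was -0.65 (SE 0.07, adjusted p = 4.62e-09) there and -0.35 (SE 0.06, adjusted p = 3.06e-05) in the midbrain. In left cortex it was -0.62 (SE 0.08, adjusted p = 4.79e-08), and right cortex had -0.68 (SE 0.07, adjusted p = 5.69e-10). In these comparisons 62.8%, 51.2%, 58.1% and 62.8% of the genes were called. The median over all genes was -0.54, -0.20, -0.22 and -0.33, and Ptp1b lay below it by 0.11, 0.15, 0.40 and 0.35, as the 16th, 5th, 9th and 8th lowest of the 43 genes. No change was called from T1 to T2 in NON mice, where the differences were -0.12, -0.10, 0.05 and 0.03.

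HOM mice also had lower levels at T3, with T3 against T1 at -0.47 in the hindbrain, -0.26 in the midbrain, -0.81 in left and -0.71 in right cortex, all called. These values weight AM and PM equally, and the T3 PM group was 1 HOM pool in each region, in the cortices the pools at 746 and 813 that lay under all AM pools. In HEM mice, T3 against T2 was -0.47 in the hindbrain, -0.51 in left and -0.49 in right cortex, all called, and -0.14 (adjusted p = 0.059) in the midbrain. In all, 18 of 28 comparisons of time points were called, all lower at the later time, against 37.0% of all tests on all genes.

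The size of the T3 fall depended on the scaling, and depth fell with it. Median reference gene means at T3 were 3652 in the hindbrain, 3685 in left and 3569 in right cortex, against 4530.3, 7505 and 8272 at T1, whereas the midbrain had 6171 against 5055. With TMM scaling, which brings the median of all genes to between -0.05 and 0.06, NON T3 against T1 was -0.16 (adjusted p = 0.020) in the hindbrain, -0.15 (adjusted p = 0.049) in the midbrain, -0.34 (adjusted p = 7.17e-05) in the left and -0.32 (adjusted p = 7.16e-05) in the right cortex. In HOM mice under TMM it was -0.03 (adjusted p = 0.83), -0.11 (adjusted p = 0.25), -0.48 (adjusted p = 1.98e-05) and -0.36 (adjusted p = 0.00019), so that only the cortical calls remained. With the positive control probes, which do not correct for the RNA put in, the NON values were -2.30, -0.38, -2.20 and -2.45, all called. In HOM mice they were -1.09, 0.09, -1.95 and -1.90 in the same order. There the midbrain sign turned and the hindbrain call was lost. The part of the lower depth in the fall was not tested.

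The T3 fall differed between regions. The fit with the pool as a block took the fall in a region as the same in all genotypes. There, T3 against T1 was more negative than in the midbrain by -0.41 (SE 0.05, adjusted p = 2.07e-12, 53.5% of genes called) in the left and by -0.42 (SE 0.05, adjusted p = 1.08e-12, 48.8% of genes called) in the right cortex. With TMM these were smaller but still called (-0.15 and -0.17). Against the hindbrain the cortices differed by -0.13 each (adjusted p = 0.073 and 0.065, with 34.9% and 39.5% of genes called), and both were called without reference gene 1 (-0.21 each, adjusted p = 0.0052 and 0.0056). Both were also called with DESeq2's own size factors (-0.23 each, adjusted p = 0.00018 and 0.00016). The same held without the pools of low reference counts (-0.19 each, adjusted p = 0.016 and 0.012). The right cortex was also called with DESeq2 and the reference genes and by the likelihood-ratio test (-0.15, adjusted p = 0.047 in each). Fitted by genotype, T3 against T1 in left cortex, right cortex and hindbrain was -0.62, -0.68 and -0.65 in NON mice. In HOM mice it was -0.81, -0.71 and -0.47. Whether the regional difference varied by genotype was not tested. The midbrain fell less than the hindbrain by 0.28 (SE 0.06, adjusted p = 9.92e-06, 48.8% of genes called), a difference that was 0.03 with TMM (adjusted p = 0.69). Left and right cortex differed by 0.00 (95% interval -0.10 to 0.10, 2.33% of genes called). Accordingly, the left cortex exceeded the midbrain by 0.59 at T1 and at T2 and by 0.17 at T3 when each time point was fitted alone.

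Most pathway genes were also lower at T3 in NON mice: 15 of 19 were called lower in the hindbrain, 13 in the midbrain, 13 in left and 17 in right cortex, beside 26, 22, 19 and 22 of all 43 genes. The leptin receptor was among those that fell most, with Lepr at -1.49 and its long form Lepr-b at -2.06 in the left cortex. Jak2 fell by 1.35 in the left cortex and by 0.28 in the midbrain. Insr fell by 0.75 in the hindbrain and 0.63 in the left cortex. Akt1, a kinase downstream of PI3-kinase, was called higher in the left (0.35) and right cortex (0.37) and lower in the hindbrain (-0.35).

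Pools that were high in one region tended to be high in another. With the mean of the group (time point, genotype and collection time) taken off, Ptp1b levels in left and right cortex of the same pool had a Pearson r of 0.73 (n = 41, permutation p = 1e-05, the smallest that 100000 permutations can give, adjusted p = 7e-05) and a Spearman rho of 0.75 (permutation p = 1e-05, adjusted p = 4.67e-05). Left cortex and midbrain had an r of 0.71 (n = 41, adjusted p = 7e-05) and a rho of 0.72, and right cortex and midbrain an r of 0.62 (n = 43, adjusted p = 0.00014) and a rho of 0.65, by the same permutation test. With the hindbrain, r was 0.59 for the midbrain (n = 35, adjusted p = 0.0010), 0.46 for the left cortex (n = 32, adjusted p = 0.016) and 0.39 for the right cortex (n = 33, adjusted p = 0.037), with rho of 0.48, 0.38 and 0.22 and adjusted permutation p of 0.010, 0.065 and 0.24. The adjustment covered 14 relations.

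Leaving out the 2 pools farthest from the median of the x axis gave an r of 0.70 between the cortices, 0.64 between each cortex and the midbrain, and 0.51, 0.35 and 0.28 with the hindbrain. Within T1 and T2 alone, r between the cortices was 0.83 (n = 26), and within T3 it was 0.70 (n = 15). For the left cortex and the midbrain these were 0.76 and 0.65. With TMM scaling the relations with the hindbrain were not called (r of 0.31, 0.15 and 0.19), and with the positive control probes r between the cortices was -0.11.

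No relation with the reference gene level was called under the main scaling. That level is also the divisor of the Ptp1b level, so these r cannot decide whether Ptp1b varied with the RNA measured. With the reference gene level, r was -0.01 in the hindbrain (n = 42), -0.03 in the midbrain (n = 45), 0.22 in left (n = 43) and 0.21 in right cortex (n = 45), with adjusted permutation p of 0.19 to 0.96 (rho of -0.18, -0.09, 0.23 and 0.22). Within T1 and T2 the hindbrain r was -0.37 (n = 28, permutation p = 0.049, adjusted p = 0.083; rho -0.41, permutation p = 0.032, adjusted p = 0.069), and within T3 it was 0.08 (n = 14). With TMM scaling, which does not divide by the reference genes, r was 0.57 in the hindbrain (adjusted permutation p = 0.00023). It was 0.11 in the midbrain, -0.04 in left and 0.02 in right cortex, none of them called.

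At T2 the mean ages of the pools were between 114 and 271 days, and they fell on either side of a gap, with 7 pools 38.3 to 63.3 days younger and 10 pools 9.9 to 63.3 days older than their group mean. In each region 6 of the 7 younger pools lay above the group mean of Ptp1b, and 2 or 3 of the 10 older ones did. Each AM group held 2 pools, so there the older pool lay below the mean whenever the younger lay above it. These counts are therefore partly fixed by the centring. Within either side no relation was called (r of -0.39 to 0.06, adjusted exact permutation p from 0.86 to 0.94 over 8 tests). The 4 regions share mice and are not separate evidence. Over both sides, a negative r with age was found for 29 of the 43 genes in the hindbrain, 33 in the midbrain, 27 in left and 31 in right cortex, Ptp1b among them, and in the hindbrain the sign for Ptp1b turned with TMM and with the positive control probes.

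**Figure D4:**
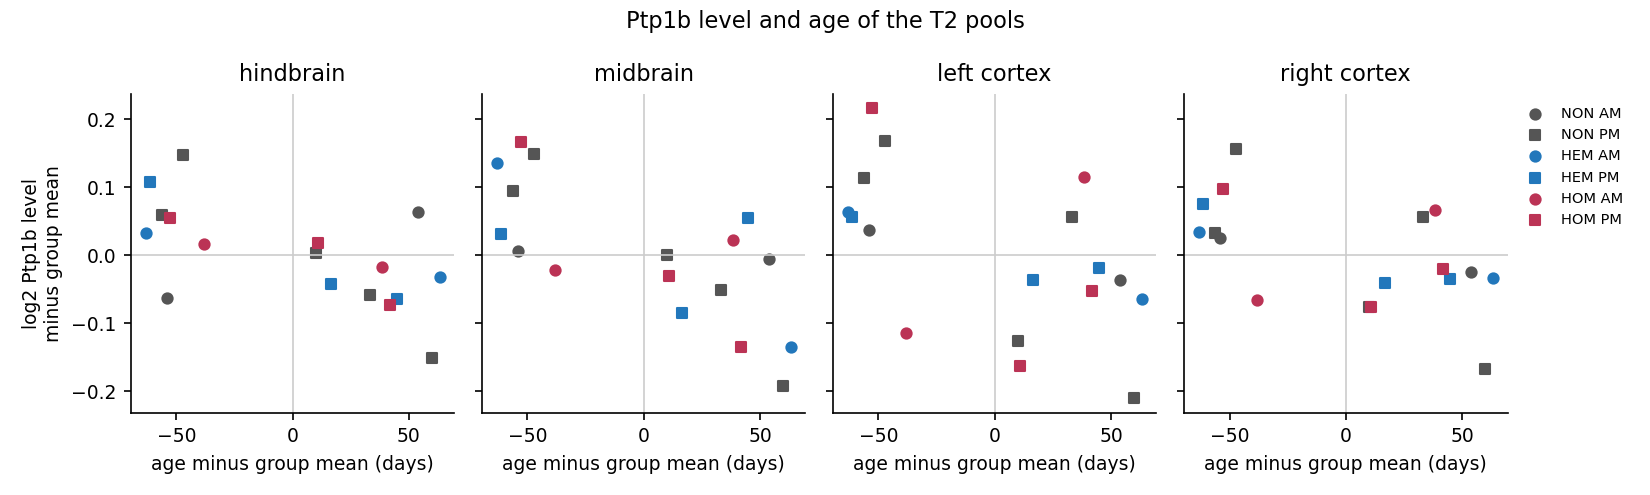
Deviation of the log2 Ptp1b level (y axis) and of the mean age in days (x axis) from the mean of the group, for the 17 T2 pools of each region (panels); colours are genotypes, circles AM and squares PM. In each region 6 of the 7 younger pools lie above 0 on the y axis.

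The target genes with the pattern most like that of Ptp1b were Jak2, Pik3ca, Gsk3b, Pde3b and Irs2. Likeness was the mean over the regions of Pearson r of log2 levels across the pools with a labelled collection time (43 hindbrain, 46 midbrain, 45 left cortex and 46 right cortex pools), as a description with no test. Jak2 had 0.88, with 0.88 to 0.90 in single regions, Pik3ca (the catalytic subunit of PI3-kinase) 0.87, Gsk3b 0.87, Pde3b (a phosphodiesterase that insulin activates) 0.81 and Irs2 0.78. The median over the 42 other target genes was 0.46, and all levels share the same divisor in a pool. With group means taken off, Irs2 had 0.67 and Jak2 0.66, against a median of 0.24. Least like it were Ramp1, a coreceptor of amylin and CGRP receptors, at -0.45 and Akt1 at -0.15, which had 0.52 in the hindbrain and -0.53 and -0.58 in the left and right cortex.

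**Figure D5:**
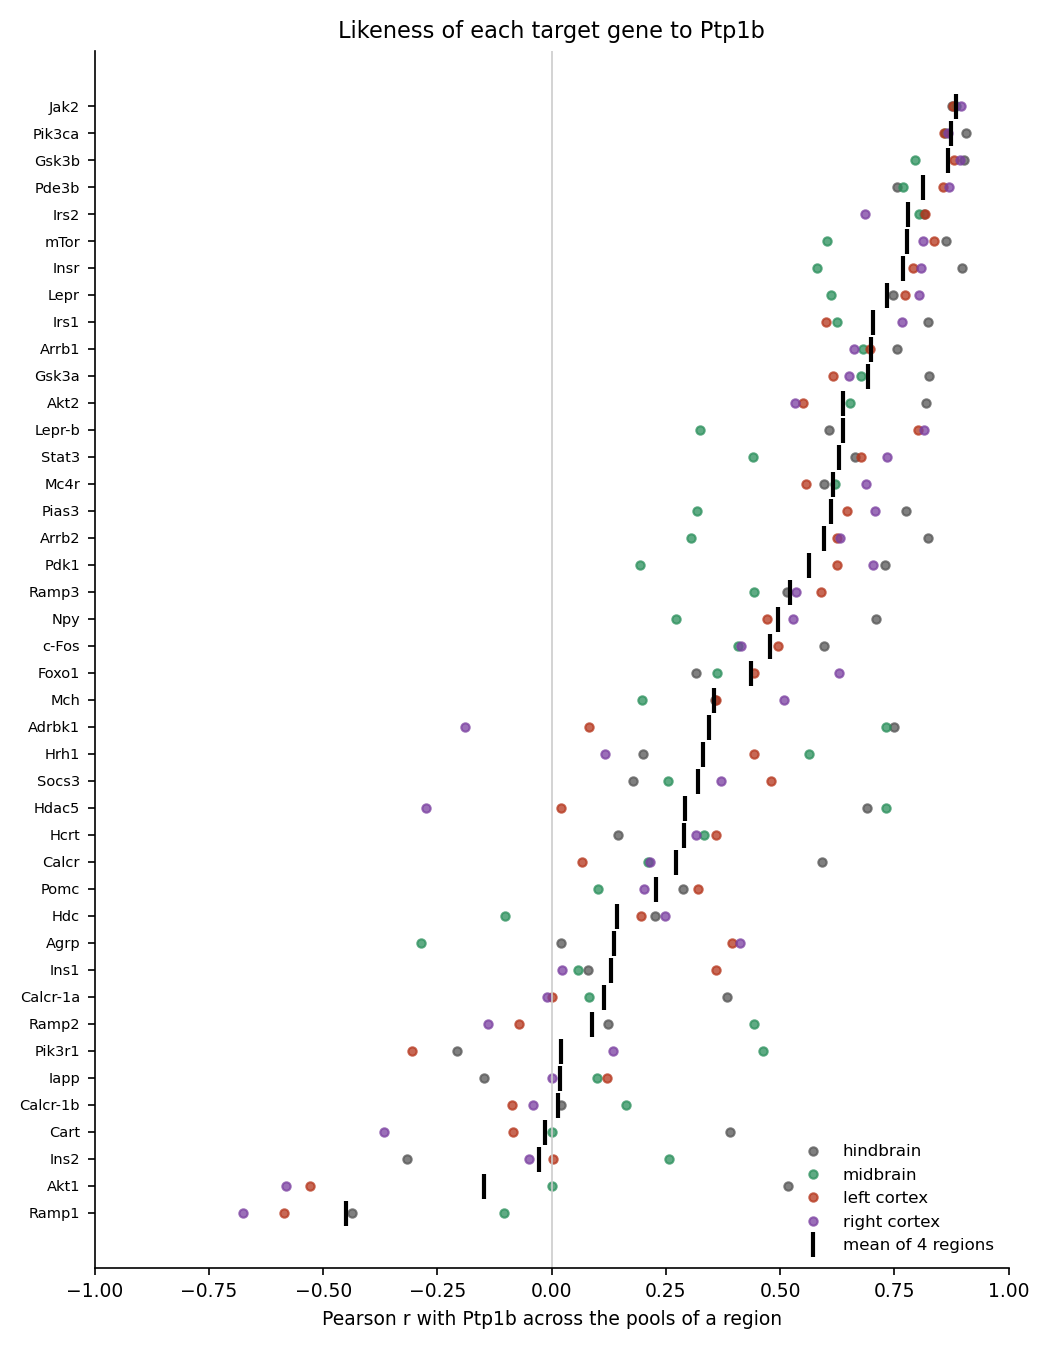
Pearson r of the log2 level of each of the 42 other target genes with that of Ptp1b across the pools of a region (x axis), with genes in order of the mean; dots are regions and black bars the mean of the 4 regions. Jak2 is at the top with 0.88 and Ramp1 at the bottom with -0.45.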

How the data were processed

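The members and the pathway list were chosen with earlier results of these data known. The authors hybridised pooled RNA to a custom nCounter CodeSet, scanned 280 fields of view and deposited raw counts per probe, without background correction or normalization, for 43 target genes, 3 reference genes, 8 negative and 6 positive control probes. Samples were grouped by their titles and characteristics. No column lacked a sample, and no pair of pools of a group held identical counts (198 pairs, lowest chi-square per degree of freedom 4.79). Total target counts were 3489 to 252890 per hindbrain, 125321 to 314759 per midbrain, 51446 to 490984 per left cortex and 90264 to 525264 per right cortex pool. Raw Ptp1b counts were 81 to 19446.

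Counts were tested with edgeR 4.0.16 (R 4.3.3), by quasi-likelihood, and p-values were adjusted across the 43 genes by Benjamini and Hochberg's method. The reference gene mean served as library size. Each region had its own fit, in which every combination of collection time, genotype and time point had a mean. Regions were compared with the pool as a block, where libraries of the same time point, genotype and pool number were taken as the same mice; the labelled ages of 1 such pool (HOM 1/5 at T3) differ between midbrain and left cortex. The region by collection time, region by time point, single time point and age-matched pair fits were added after the data were seen. Permutation tests were two-sided and used Python 3.11.15, NumPy 2.4.6 and SciPy 1.17.1. Those of correlations shuffled the deviations over the pools of a relation without regard to group. Figures used matplotlib 3.10.9. The log2 correlations of all target genes used a pseudocount of 0.5. Sequences are from RefSeq (GRCm38.p6). The tests were tested on simulated data. Alternatives were TMM, the positive control probes, each reference gene left out, DESeq2 1.42.0, the likelihood-ratio test, background subtraction, a filter on low counts, subsets of pools and leaving out each pool. Named genes were Ptp1b, the 19 pathway genes, and the 5 most and 2 least like Ptp1b; Hrh1, Hdac5 and the hypothalamic genes were named after values were seen. The authors analysed these counts with NanoStringDiff, which was not used here.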

Additional observations from a re-analysis of the deposited data

Results flagged for a closer look

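The test of the difference itself was passed by 7 of the 12 region comparisons of effects and by 1 interaction of genotype and collection time. The interaction, in the hindbrain at T3, was -0.60 on the log2 scale for HOM against NON mice. It has 1 HOM PM pool and lost its call under 7 of 12 other settings, so no difference is read from it. The PM against AM difference was lower in the left cortex than in the hindbrain by -0.18 and than in the midbrain by -0.20, and in the right cortex by -0.19 and -0.21. With the positive control probes these PM against AM differences between regions were not called. The T3 against T1 difference was less negative in the midbrain than in the hindbrain by 0.28, and more negative than in the midbrain by -0.41 in left and -0.42 in right cortex. The midbrain and hindbrain difference was 0.031 with TMM and -0.031 with DESeq2's own size factors, and neither was called. The region tests were added after the data were seen. No pool stood apart from its group in the 11 groups of 4 to 10 pools.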

How the results depend on the processing

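Every setting changed 1 choice, except DESeq2 with its own size factors, which changes the test and the scaling together, and the comparison over all T1 pools, which adds pools without a collection time and NON AM pools, and the cause of a change was not tested unless named. Of 705 values under other settings, 563 kept their direction and side of the threshold, 89 lost the call or counted fewer calls, 22 gained it or counted more, and 31 reversed. Log2 values follow. Calls lost: without reference gene 1, average midbrain PM against AM was -0.084. Without reference gene 3, HEM against NON in midbrain was 0.067, and NON T1 PM against AM -0.38 in left and -0.37 in right cortex. With TMM, HEM midbrain was 0.047 and NON T1 right cortex PM against AM -0.26. With DESeq2's own size factors, HEM midbrain was 0.047 and NON T1 left cortex PM against AM -0.30. HEM midbrain was 0.10 with only the groups compared and 0.071 with only previously diabetic transgenic pools at T3. With the positive control probes, which do not correct for the RNA put in, average PM against AM was -0.055 in midbrain, -0.12 in left and -0.20 in right cortex, and at NON T1 -0.26 in left and -0.49 in right cortex. Calls gained: NON T1 midbrain PM against AM was -0.34 without reference gene 1, -0.45 with the positive control probes, -0.31 with DESeq2 and the reference genes and with only the groups compared, and -0.23 with DESeq2's own size factors. HOM against NON in hindbrain was 0.14 without reference gene 1, HEM and HOM there 0.12 each without gene 3, average hindbrain PM against AM -0.11 without gene 2, and HOM with the positive control probes 0.18 in midbrain and 0.32 in right cortex. Signs turned: without reference gene 2, right cortex HOM against NON was -0.030 and NON T2 against T1 there -0.000351. With TMM, NON T2 against T1 was 0.000569 in hindbrain and -0.082 in left cortex, HOM right cortex -0.0078, and the midbrain minus hindbrain difference of PM against AM -0.060. With the positive control probes, hindbrain PM against AM was 0.16, left cortex HOM 0.41 and HEM 0.082, NON T2 against T1 0.029 in midbrain and -0.32 in left cortex, and the midbrain minus hindbrain difference of PM against AM -0.062. With these probes HOM T3 against T1 in midbrain also turned, from -0.26 to 0.094. With DESeq2's own size factors, NON T1 hindbrain PM against AM was 0.000487, NON T2 against T1 0.013 in hindbrain, -0.027 in left and -0.020 in right cortex, HOM right cortex -0.023 and at T3 AM -0.00671, and the midbrain minus hindbrain difference -0.048 for PM against AM and -0.031 for T3 against T1. The left minus right cortex difference of T3 against T1 was -0.000406 there, -0.0080 without reference gene 1 and -0.0021 without gene 3. Hindbrain HEM over all T1 pools was 0.099.

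Of 39 genotype comparisons, 5 were called, against 1 with TMM or DESeq2's own size factors, 2 with only the groups compared, and 3 with the positive control probes, without reference gene 1, by the likelihood-ratio test or without pools of low reference counts. The PM against AM comparisons called went from 6 to 2 with the positive control probes, where all 6 calls were lost and the 2 were others (NON T1 midbrain, -0.45, and HEM T3 left cortex, turned from -0.24 to 0.76), and HOM against HEM from 0 to 1. The 1 interaction called became 2 without reference gene 2 or 3 and 0 with TMM, DESeq2's own size factors, the likelihood-ratio test, only the groups compared, without reference gene 1 or without pools of low counts.

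Calls were lost or signs turned for these correlations. With TMM, r with the hindbrain was 0.31 for midbrain, 0.15 for left and 0.19 for right cortex, and with the positive control probes 0.076, -0.23 and 0.15. With those probes r was 0.18 between left cortex and midbrain and -0.11 between the cortices. Age at T2 over all 17 pools, which form separate sides, had r of -0.62, -0.72, -0.54 and -0.55 in hindbrain, midbrain, left and right cortex, given only to read the change, and under TMM of 0.40, -0.55, -0.42 and -0.38 in that order, and with the positive control probes 0.44 in hindbrain, -0.065 in left and -0.57 in right cortex. The reference level had r under TMM of 0.57 in hindbrain, 0.11 in midbrain and -0.040 in left cortex.

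Leaving out 1 pool at a time gave ranges of 0.073 to 0.11 for HEM and 0.091 to 0.14 for HOM against NON in hindbrain, 0.074 to 0.13 for HEM in midbrain, and for HOM -0.066 to 0.010 in left and -0.000942 to 0.052 in right cortex. PM against AM ran from -0.099 to -0.051 in hindbrain and from -0.12 to -0.080 in midbrain, and at NON T1 from -0.44 to -0.38 in left and from -0.46 to -0.39 in right cortex. The midbrain minus hindbrain difference of PM against AM ran from -0.0027 to 0.031, and the left minus right cortex difference from -1.65e-05 to 0.021 for PM against AM and from -0.011 to 0.023 for T3 against T1. The genotype comparisons called ran from 3 to 6, the PM against AM comparisons from 4 to 7, the interactions from 0 to 2 and the time comparisons from 15 to 20.

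Without the pool as a replicate block, the region differences were 0.62, 1.06, 1.11, 0.44, 0.49 and -0.05 in the order of the report, and no call changed.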
